A study of Mus musculus with 23 samples.

Results

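Striatal medium spiny neurons (MSNs) make peptide transmitters beside GABA, and striatal interneurons and inputs from other regions make others. The non-opioid peptide precursors CCK, TAC1, SST, NPY, NTS and CARTPT, together with the granule protein SCG2, were examined here on polysome-bound RNA of direct and indirect pathway neurons. Members were taken by gene symbol alone, as all probes of the array report that carry one of these 7 names. This gave 10 probes among the 45281 probes of the report, which carry 30854 different symbols, and all 10 passed the filter on low signals.

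Neuropeptides are cut from larger precursors, packed into dense core granules and released during strong firing, and they act on G protein-coupled receptors over a wider range than fast transmitters. In the striatum, substance P from the TAC1 precursor is the classical non-opioid peptide of direct pathway MSNs, whereas SST and NPY are made by a sparse class of GABAergic interneurons. CCK is abundant in cortical neurons that project to the striatum, NTS is a neuropeptide long studied for its ties to dopamine transmission, CARTPT encodes the precursor of CART peptides, and SCG2 is a granin that forms part of the granule matrix and is itself cut into peptides.

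The data came from the striatum of BacTRAP mice, in which the ribosomal protein L10a carries an EGFP tag, so that RNA under translation can be pulled down from tagged cells. Mice of line CP73 carried EGFP-L10a under the DRD1A promoter and mice of line CP101 under the DRD2 promoter, both on a C57BL/6J/Swiss-Webster background. All mice had a unilateral 6-OHDA lesion of dopamine neurons, were 71 days old, and were killed 40 min after a dose of LDOPA on the last day. The chronic groups had also received LDOPA (6 mg/kg), with the decarboxylase inhibitor benserazide (15 mg/kg), over the 21 days before, and the acute groups had received vehicle instead. By their labels, 8 arrays were DRD1A chronic LDOPA, 7 DRD1A acute LDOPA, 4 DRD2 chronic LDOPA and 4 DRD2 acute LDOPA, each from the lesioned striatum of 1 mouse. The group sizes in the study's text differ from these labels for DRD1A chronic and DRD2 acute, and the labels were followed. No unlesioned or LDOPA-free group was among the samples, and the DRD2 promoter is also active in cholinergic interneurons, which limits what the DRD2 line can say about indirect pathway MSNs alone.

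Arrays were named by BeadChip (1 to 4) and position (A to F). The DRD2 chronic arrays 1D and 3A stood closer to each other than any other of the 253 pairs. Their r was 0.990 over the 32255 probes that passed the filter, and that of the next pair was 0.928. The 2 arrays were averaged into 1 sample, so that 22 samples were compared, 3 of them DRD2 chronic. A difference is always of quantile normalized log2 signals, a call is an adjusted p under 0.05 over all probes tested, and a probe was detected where its detection p was under 0.05. Between 13114 and 17443 probes were detected per array. BeadChip 1 held arrays of the DRD1A acute and DRD2 chronic groups only, and its lowest signals were 65.1 to 70.3, against 94.0 to 121.6 on the other BeadChips. After acute LDOPA the DRD1A minus DRD2 log2 difference was -3.83 for DRD2, 2.79 for PDYN, the dynorphin precursor of direct pathway MSNs, and -3.01 for PENK1, the enkephalin precursor of indirect pathway MSNs. DRD1A itself differed by 1.72 (adjusted p = 0.13), with DRD2 arrays 1A, 4A and 2C at 9.28, 8.50 and 8.42 and the other DRD2 samples between 7.12 and 7.47, so results are also given without those 3 arrays where they move. DRD2 chronic is then the single sample of 1D and 3A, which the fit takes to vary like the other groups. After acute LDOPA 4 of 8 direct pathway markers were called higher and 3 of 6 indirect pathway markers lower in DRD1A mice (0.158% of all probes called). After chronic LDOPA these counts were 0 of 8 and 1 of 6 (0.0279%).

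All 7 genes had a promoter in RefSeq (GRCm38.p6), given as 250 bases before to 50 bases after the start of transcription. The cAMP response element (CRE), to which the activity-driven factor CREB binds, reads TGACGTCA, and CREB signaling follows DRD1A stimulation. Both strands were searched. The full element stood in 3 of the 7 promoters, SST, CARTPT and SCG2, 48, 112 and 68 bases before the start, and in 1.79% of the 32851 promoters of that length. The windows around it are shown because these are the members with the full element, with the element in capitals.

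SST: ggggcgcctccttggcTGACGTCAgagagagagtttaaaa
CARTPT: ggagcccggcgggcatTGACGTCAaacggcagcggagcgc
SCG2: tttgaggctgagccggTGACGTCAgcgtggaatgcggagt

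The SST window lies at chr16:23890869-23890908, minus strand, the CARTPT window at chr13:99900772-99900811, minus strand, and the SCG2 window at chr1:79440071-79440110, minus strand. The promoters of CCK and TAC1, the genes with the largest differences between DRD1A and DRD2 mice over both treatments, held only a shortened CRE, TGACG (both strands, also part of the full element), which was present in 20.8% of all promoters and is in capitals here as CGTCA, its reading on the other strand.

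CCK: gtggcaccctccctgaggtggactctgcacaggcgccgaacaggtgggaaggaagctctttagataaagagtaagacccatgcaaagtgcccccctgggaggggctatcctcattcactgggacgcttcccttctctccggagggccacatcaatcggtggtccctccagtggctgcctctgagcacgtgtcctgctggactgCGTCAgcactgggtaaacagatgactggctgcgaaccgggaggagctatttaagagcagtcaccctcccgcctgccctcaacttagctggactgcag
TAC1: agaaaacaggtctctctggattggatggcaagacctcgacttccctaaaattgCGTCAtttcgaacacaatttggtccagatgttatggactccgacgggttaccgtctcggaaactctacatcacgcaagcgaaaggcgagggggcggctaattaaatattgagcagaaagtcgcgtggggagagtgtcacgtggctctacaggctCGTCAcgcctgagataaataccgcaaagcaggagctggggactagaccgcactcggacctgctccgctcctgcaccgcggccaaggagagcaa

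The CCK promoter lies at chr9:121495645-121495944, minus strand, with its short element 47 bases before the start. The TAC1 promoter lies at chr6:7554811-7555110, plus strand, with short elements 197 and 43 bases before the start. NTS held a short element 166 bases before the start and was the only member with an AP-1 site, TGANTCA (7.81% of all promoters), 207 bases before it, and NPY held none of these letters. These matches are descriptions of the letters only, and binding was not measured.

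CCK, the precursor of cholecystokinin, was higher in DRD1A than in DRD2 mice and was the only member that passed the test. After acute LDOPA its quantile normalized log2 signal ranged from 9.11 to 9.72 in DRD1A mice (median 9.65, 7 samples), against 8.15, 8.20, 8.01 and 8.23 in DRD2 mice. Every DRD1A acute sample lay above every DRD2 acute sample, which held for 0.784% of all probes. The difference was 1.36 ± 0.23 (SE) on the log2 scale, or 2.56-fold (95% interval 1.84 to 3.56), with an adjusted p of 0.020 from limma over the 32255 probes tested. This was 1 of the 10 member probes called, and 0.158% of all probes were called in this comparison. With BeadChip as a block the adjusted p was 0.10 at a difference of 1.30, and without DRD2 acute array 2F or 3F it was 0.054 and 0.065. On BeadChips 2, 3 and 4, each of which held both groups, the difference was 1.54, 1.63 and 1.45. These values rest on 1 DRD1A array each, against 2, 1 and 1 DRD2 arrays. Without arrays 1A, 2C and 4A the difference was 1.36.

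After chronic LDOPA the groups overlapped. CCK ranged from 9.00 to 10.24 in DRD1A mice (median 9.50, 8 samples), against 9.11 (1A), 8.78 (1D and 3A averaged) and 7.70 (4A) in DRD2 mice. The DRD1A samples lay above all DRD2 samples in 7 of 8 cases, and the lowest of them, 2A, lay below DRD2 array 1A. The difference was 0.97 ± 0.25 (SE), or 1.96-fold (95% interval 1.37 to 2.80), with an adjusted p of 0.27. In this comparison 0 of 10 member probes were called with limma, and 0.0279% of all probes, while at an unadjusted p under 0.05 limma gave 2 of 10 member probes (CCK and TAC1) and 6.14% of all probes. The methods' test applies Tukey's HSD to probes whose one-way analysis of variance has an adjusted p under 0.05 over all probes. By that test CCK passed here too. Its HSD p was 0.0066, which is adjusted over the group pairs of this probe and not over all probes, unlike limma's 0.27. Without DRD2 chronic array 4A the difference was 0.55 (adjusted p = 0.71), and over the 36 alternatives it ran from 0.55 to 1.37. Array 1A, the DRD2 sample that overlapped, also had the highest DRD1A (9.28) and the lowest DRD2 signal (9.95) of the DRD2 samples. The part of RNA from DRD1A cells in its CCK signal was not tested. On BeadChips 3 and 4 the line difference was 1.15 and 1.67, each from 3 DRD1A arrays against 1 DRD2 array.

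Over both treatments, CCK was 2.24-fold higher in DRD1A mice (95% interval 1.75 to 2.86, log2 difference 1.16 ± 0.17 SE, adjusted p = 0.0030), again 1 of 10 member probes, against 0.366% of all probes. At an unadjusted p under 0.05 there were 2 of 10 member probes here and 8.59% of all probes, and 3 of 10 and 9.11% after acute LDOPA. CCK was called in each of the 34 alternative fits over both treatments, with differences from 0.95 to 1.62. CCK was also 1 of the 10 member probes that varied among the 4 groups (adjusted p = 0.014, 0.295% of all probes called). An exact permutation test of the acute comparison gave the smallest two-sided p it could, 0.0061, and 0.17 after adjustment over the 28 exact tests of the 7 members, the same adjusted value as for CCK after chronic LDOPA.

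**Figure D1:**
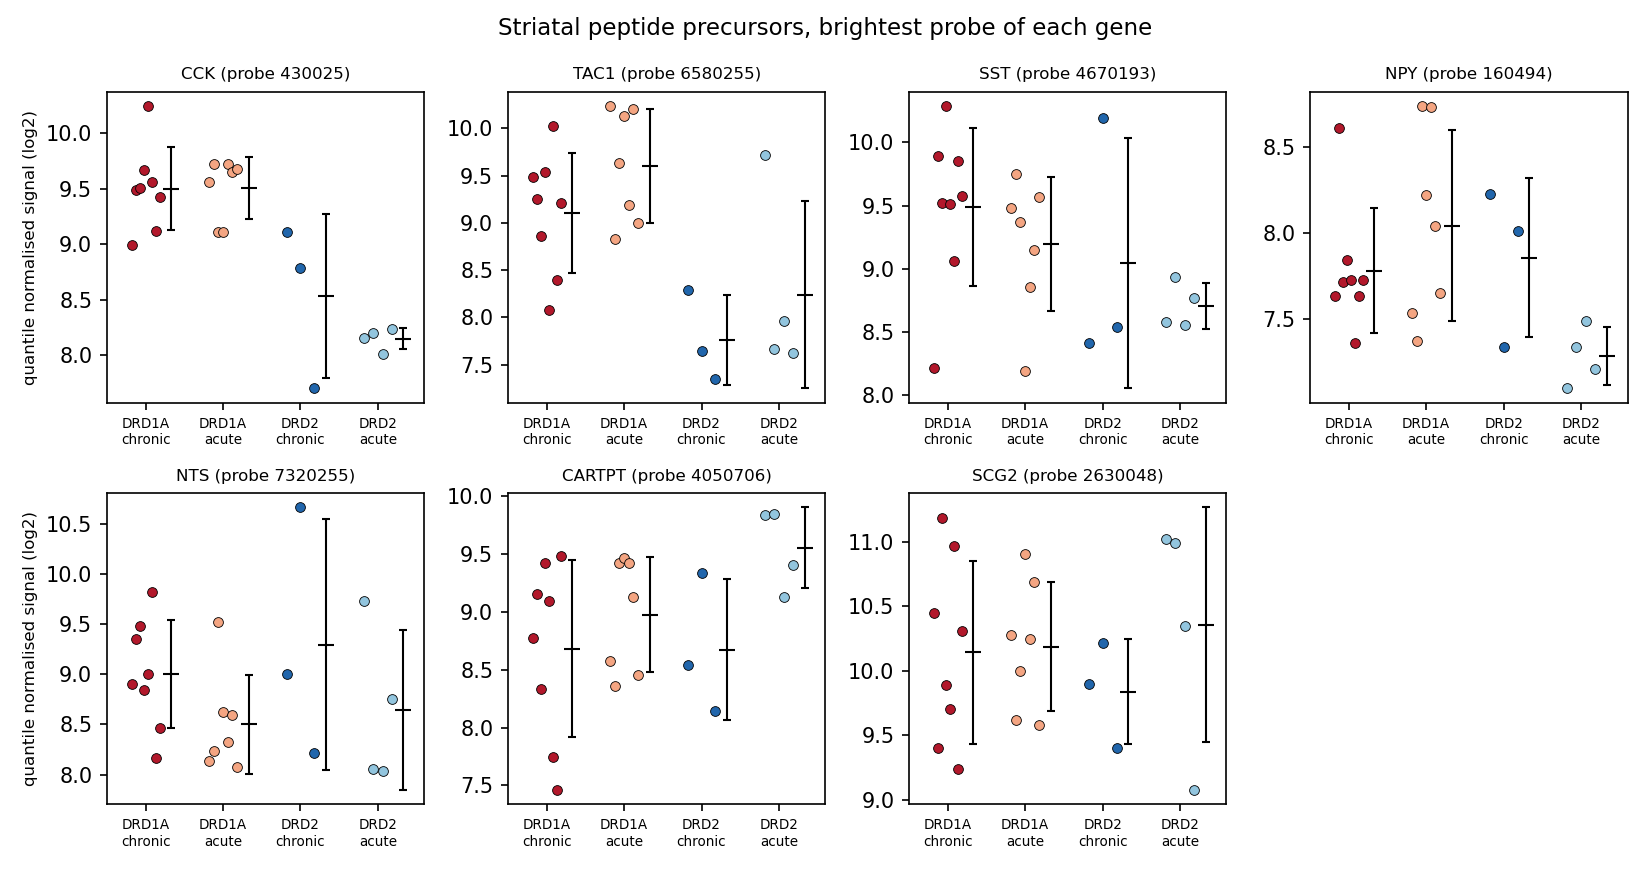
Quantile normalized log2 signal of the brightest probe of each of the 7 genes (y axis) in the 4 groups (x axis); points are samples, and the bar beside them is the mean with the SD. CCK lay between 9.00 and 10.24 in the DRD1A samples and between 8.01 and 8.23 in the DRD2 acute samples. In the DRD2 chronic samples it lay between 7.70 and 9.11, which overlaps the DRD1A samples. For TAC1, 1 DRD2 acute sample stood at 9.71.

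A marker of cortical excitatory neurons, the transcription factor NEUROD6, differed in the same direction as CCK. Of 10 such markers, all detected on most arrays, NEUROD6 was higher in DRD1A mice over both treatments (log2 difference 1.45, adjusted p = 0.028), and the other 9 were not called. At an unadjusted p under 0.05 limma gave 2 of the 10 after chronic LDOPA (6.14% of all probes), 4 after acute LDOPA (9.11%) and 6 over both (8.59%). The list's median difference was 0.39, against -0.0032 over all probes. The summed signal of the list was 6898 to 9592 in DRD1A chronic (median 8234), 5818 to 9706 in DRD1A acute (8778), 7237 to 8468 in DRD2 chronic (7369) and 5158 to 8138 in DRD2 acute samples (5520), with higher medians in DRD1A mice and overlapping ranges. SLC17A7, the vesicular glutamate transporter of these neurons, differed by 0.30 after chronic and 0.19 after acute LDOPA (adjusted p = 0.80 and 0.69), and NEUROD6 by 1.04 and 1.87 (adjusted p = 0.70 and 0.060). Over the 22 samples, among 3729 annotated genes detected on all arrays, NEUROD6 was the gene most like CCK (Pearson r = 0.87), followed by FXYD6, a regulator of the sodium pump (0.87), and ISL1, a transcription factor of developing direct pathway MSNs (0.81). These r values are descriptions that include the difference between the lines. The part of cortical RNA in the CCK difference was not tested.

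Glial markers were detected as well. Of 9 oligodendrocyte markers, 7 were detected on most arrays and OLIG2 on 0, and none was called between the lines. Over both treatments 5 of the 9 had an unadjusted p under 0.05 with limma (8.59% of all probes). Their median difference was -0.59, and their summed signal was 3515 to 9917 in DRD1A chronic (median 6457), 3853 to 8687 in DRD1A acute (5121), 4736 to 13993 in DRD2 chronic (12580) and 5980 to 9300 in DRD2 acute samples (8440). The medians were thus lower in DRD1A mice, opposite to CCK and TAC1. Of the astrocyte markers that passed the filter (8 of 9) and the microglial ones (6 of 8) none was called, with median differences of -0.08 and -0.11 over both treatments, and the microglial markers C1QA and ITGAM were detected on 0 arrays. The part of glial RNA in the line differences was not tested.

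TAC1, the substance P and neurokinin A precursor, had a difference between the lines as large as that of CCK and a wider spread, and it did not pass the test. After acute LDOPA its log2 signal ranged from 8.83 to 10.23 in DRD1A mice (median 9.63), against 9.71 (2C), 7.67 (2F), 7.96 (3F) and 7.62 (4E) in DRD2 mice. Array 2C lay within the DRD1A range, and the other 3 DRD2 acute samples lay below all DRD1A acute samples. The difference was 1.36 ± 0.41 (SE), 2.56-fold with a 95% interval of 1.41 to 4.67 (adjusted p = 0.26). Without array 2C it was 1.85 with an adjusted p of 0.043, and without 1A, 2C and 4A also 1.85 with an adjusted p of 0.063. On array 2C the DRD1A signal (8.42) was also above that of the other DRD2 acute samples (7.31 to 7.47), whereas its CCK signal (8.15) and its DRD2 signal (11.34) were within their range. The part of RNA from DRD1A cells in that array's TAC1 signal was not tested.

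After chronic LDOPA TAC1 ranged from 8.07 to 10.02 in DRD1A mice (median 9.23), against 8.29 (1A), 7.64 (1D and 3A averaged) and 7.35 (4A) in DRD2 mice. Again 7 of 8 DRD1A samples lay above all DRD2 samples, the exception being 3E. The difference was 1.34 ± 0.45 (SE), 2.54-fold with a 95% interval of 1.33 to 4.84 (adjusted p = 0.52). Over both treatments it was 1.35 ± 0.30 (SE), 2.55-fold (95% interval 1.64 to 3.96), with an adjusted p of 0.068. That value fell to 0.025 with all 23 arrays kept separate, to 0.037 with a normexp background correction and to 0.021 among detected probes only, it was 0.043 without arrays 1A, 2C and 4A or without DRD1A chronic array 3E and 0.0082 without 2C, and without BeadChip 1 it was 0.36. Exact permutation tests gave two-sided p of 0.030 after acute and 0.024 after chronic LDOPA, both 0.17 after adjustment over the 28 tests.

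The second TAC1 probe, for the transcript AK015286, was detected on 0 of 23 arrays and lay between 6.82 and 7.13 in all samples, so it carries no level. The genes most like TAC1 over the 22 samples were GALK1 (r = 0.76), TNNT1 (0.75) and COX17 (0.75), an enzyme of galactose use, a troponin and a copper chaperone of mitochondria. CCK and TAC1 had r = 0.51 over all 22 samples and -0.35 within the 15 DRD1A samples, so the relation over all samples includes the difference between the lines.

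**Figure D2:**
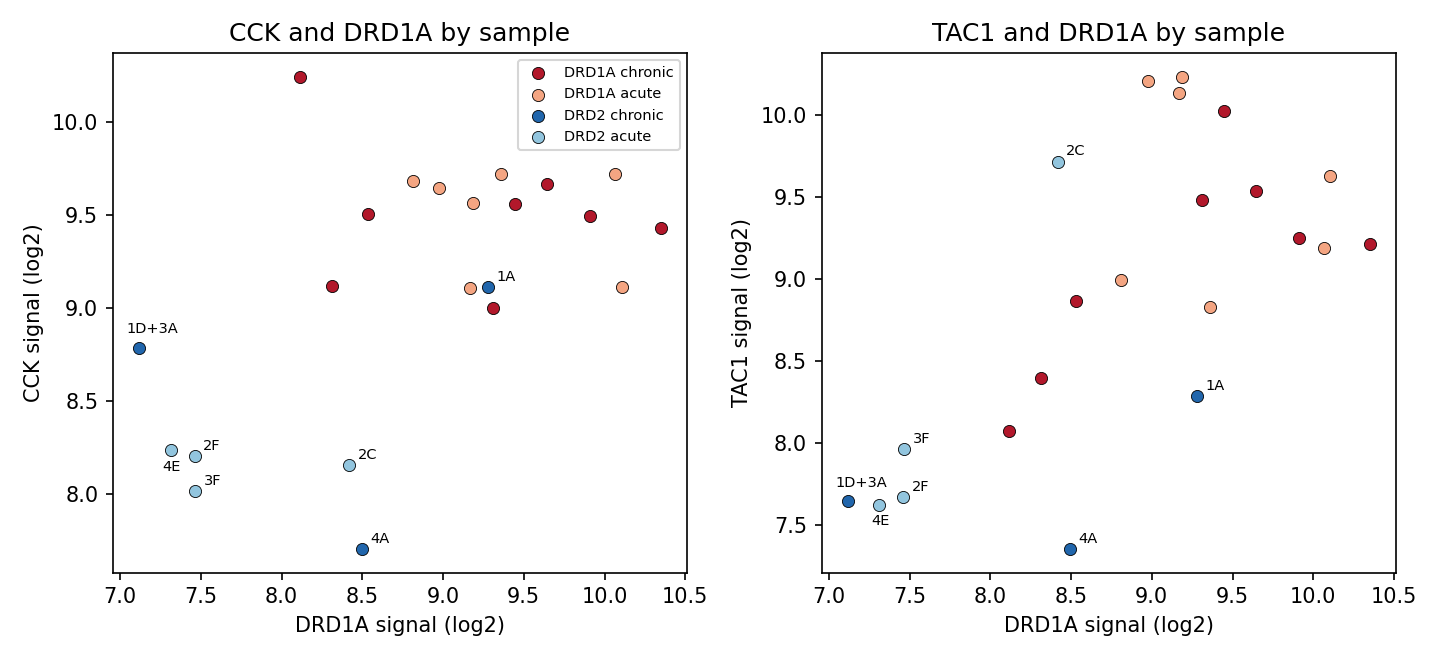
Log2 signal of CCK (left) and TAC1 (right) on the y axis against the log2 signal of DRD1A on the x axis; points are the 22 samples, colored by group, with the DRD2 samples named. DRD2 array 2C had 9.71 for TAC1 and 8.15 for CCK at a DRD1A signal of 8.42, and DRD2 array 1A had a DRD1A signal of 9.28.

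SST and NPY mark interneurons other than the MSNs that the lines were made to tag. SST ranged from 8.22 to 10.29 in DRD1A chronic (median 9.55) and from 8.19 to 9.75 in DRD1A acute samples (median 9.37), against 8.41, 10.19 and 8.54 in DRD2 chronic and 8.57, 8.94, 8.55 and 8.77 in DRD2 acute samples. The high DRD2 chronic value is that of 1D and 3A averaged, and the ranges of DRD1A and DRD2 samples overlapped under both treatments. The difference between lines was 0.44 after chronic and 0.49 after acute LDOPA (95% intervals -0.38 to 1.27 and -0.27 to 1.25 on the log2 scale, adjusted p = 1.0 and 0.74), and the upper bound in the acute comparison corresponds to 2.37-fold. Without DRD2 arrays 1A, 2C and 4A the chronic difference was -0.70, with 1D and 3A averaged as the lone DRD2 chronic sample. The genes most like SST over the 22 samples were GRINL1A (r = 0.72), ZDHHC9 (0.70) and MTMR6 (0.67).

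NPY was detected on 21 of 23 arrays, and the 2 arrays without detection were DRD2 acute. It ranged from 7.36 to 8.61 in DRD1A chronic (median 7.72) and from 7.38 to 8.74 in DRD1A acute samples (median 8.04), against 8.22, 7.34 and 8.01 in DRD2 chronic and 7.10, 7.34, 7.49 and 7.21 in DRD2 acute samples. In the acute comparison 6 of 7 DRD1A samples lay above all DRD2 samples, and the difference was 0.76 ± 0.26 (SE), 1.69-fold (95% interval 1.16 to 2.46), but it did not pass (adjusted p = 0.35, exact two-sided permutation p = 0.012 and 0.17 adjusted over the 28 tests). On BeadChips 2, 3 and 4 it was 1.52, 0.55 and 0.44, from 1 DRD1A array each against 2, 1 and 1 DRD2 arrays. After chronic LDOPA the difference was -0.08 (95% interval -0.66 to 0.51), and the change between treatments was not shown to differ between the lines (interaction -0.83, 95% interval -1.63 to -0.04, adjusted p = 0.88). Without arrays 1A, 2C and 4A the chronic difference was 0.45. The genes most like NPY were TSPAN5 (r = 0.70), BAG1 (0.68) and ASCC3L1 (0.66).

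The other genes of SST and NPY interneurons were near background. Of 9 such markers on the array, 2 were detected on most arrays and SOX6 on 0 arrays. With limma 0 of them were called in any comparison. Between the lines, 2 had an unadjusted p under 0.05 after chronic LDOPA (6.14% of all probes) and 0 after acute LDOPA (9.11%). The median difference between the lines was -0.0048 after chronic and -0.063 after acute LDOPA. NOS1, the nitric oxide synthase of these cells, differed by 0.07 and -0.03. The summed signal of the 9 genes was 1315 to 1477 in DRD1A chronic, 1194 to 1749 in DRD1A acute, 1477 to 1566 in DRD2 chronic and 1271 to 1793 in DRD2 acute samples. Of 8 markers of cholinergic interneurons, 0 were detected on most arrays and 0 were called, with summed signals of 1044 to 1167 in DRD1A chronic, 1056 to 1253 in DRD1A acute, 1058 to 1142 in DRD2 chronic and 1081 to 1236 in DRD2 acute samples. SST and NPY had r = -0.04 over the 22 samples. In pulled-down RNA of whole striatum, more cells with a transcript and more of it per cell cannot be told apart.

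NTS, the neurotensin precursor, was read by 2 probes of the same transcript. By the probe taken to represent it, 7320255, it ranged from 8.17 to 9.82 in DRD1A chronic (median 8.95) and from 8.08 to 9.52 in DRD1A acute samples (median 8.32), against 9.01, 10.66 and 8.22 in DRD2 chronic and 9.73, 8.06, 8.04 and 8.76 in DRD2 acute samples. The highest of all samples was again 1D and 3A averaged. The chronic minus acute difference was 0.50 in DRD1A and 0.65 in DRD2 mice (95% intervals -0.21 to 1.22 and -0.41 to 1.71, adjusted p = 0.77 and 0.90), and the difference between the lines was -0.29 after chronic and -0.15 after acute LDOPA, none past the test. The other probe, 1850095, detected on 19 of 23 arrays, gave -0.09 for the treatment difference in DRD1A mice, and the probes had r = 0.39 over the samples. The direction of NTS in DRD1A mice therefore depended on the probe. Without arrays 1A, 2C and 4A the treatment difference in DRD2 mice was 2.38 (adjusted p = 0.11) and the line difference after chronic LDOPA -1.66 (adjusted p = 0.43), both resting on the single sample of 1D and 3A. The genes most like NTS were SNF8 (r = 0.73), VPS33B (0.64) and PHPT1 (0.63), of which SNF8 and VPS33B belong to the machinery of endosomes.

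CARTPT, by its probe 4050706, ranged from 7.46 to 9.48 in DRD1A chronic (median 8.94) and from 8.36 to 9.46 in DRD1A acute samples (median 9.13), against 8.54, 9.34 and 8.15 in DRD2 chronic and 9.84, 9.84, 9.13 and 9.40 in DRD2 acute samples. It was highest on average in DRD2 acute samples, and 2 of the 3 DRD2 chronic samples lay below all of them. The chronic minus acute difference was -0.88 in DRD2 mice (95% interval -1.81 to 0.06, adjusted p = 0.81) and -0.29 in DRD1A mice (-0.93 to 0.34, adjusted p = 0.87). A further probe of the same transcript, 2650041, carries the older symbol CART and falls outside the choice by name. It gave -0.52 and -0.40 for these differences and had r = 0.77 with the first over the samples. The DRD1A minus DRD2 difference after acute LDOPA was -0.58 by the first probe and -0.44 by the other, and neither was called. Without arrays 1A, 2C and 4A the treatment difference in DRD2 mice was -0.12 by the first probe. The genes most like CARTPT were TRIM28 (r = 0.72), SIP1 (0.70) and SYNGR4 (0.66).

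SCG2, secretogranin II, was read by 2 probes. By the probe taken to represent it, 2630048, the signal before normalization was 518.1 to 2553.1. On the log2 scale it ranged from 9.24 to 11.19 in DRD1A chronic (median 10.10) and from 9.58 to 10.90 in DRD1A acute samples (median 10.25), against 9.90, 10.22 and 9.40 in DRD2 chronic and 11.02, 10.99, 10.35 and 9.08 in DRD2 acute samples. The groups overlapped throughout, and the chronic minus acute difference was -0.04 in DRD1A mice (95% interval -0.73 to 0.64, adjusted p = 0.99). The other probe of that transcript, 5360132, gave another picture. It ranged from 8.59 to 11.06 in DRD1A chronic (median 9.69) and from 8.23 to 9.65 in DRD1A acute samples (median 8.84), against 8.43, 9.39 and 9.18 in DRD2 chronic and 10.10, 10.17, 9.50 and 8.67 in DRD2 acute samples.

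By probe 5360132 the chronic minus acute difference was 0.97 in DRD1A mice (95% interval 0.24 to 1.70) and -0.61 in DRD2 mice (-1.69 to 0.47), and the interaction was 1.58 (0.27 to 2.89). None of these passed the adjustment (adjusted p = 0.47, 0.91 and 0.88), and with limma 0% of all probes were called for the interaction, where 5.57% of all probes and 2 of 10 member probes (NPY and this one) had an unadjusted p under 0.05. The SCG2 probes had r = 0.47 over the 22 samples. Both were detected on all 23 arrays with 33 to 68 beads each, and the standard error over beads was at most 11.1% of the signal. Why the probes differ was not tested. The genes most like SCG2 by probe 2630048 were HSP90B1 (r = 0.74), ZNHIT6 (0.72) and HSPA5 (0.72), of which HSP90B1 and HSPA5 are chaperones of the endoplasmic reticulum.

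**Figure D3:**
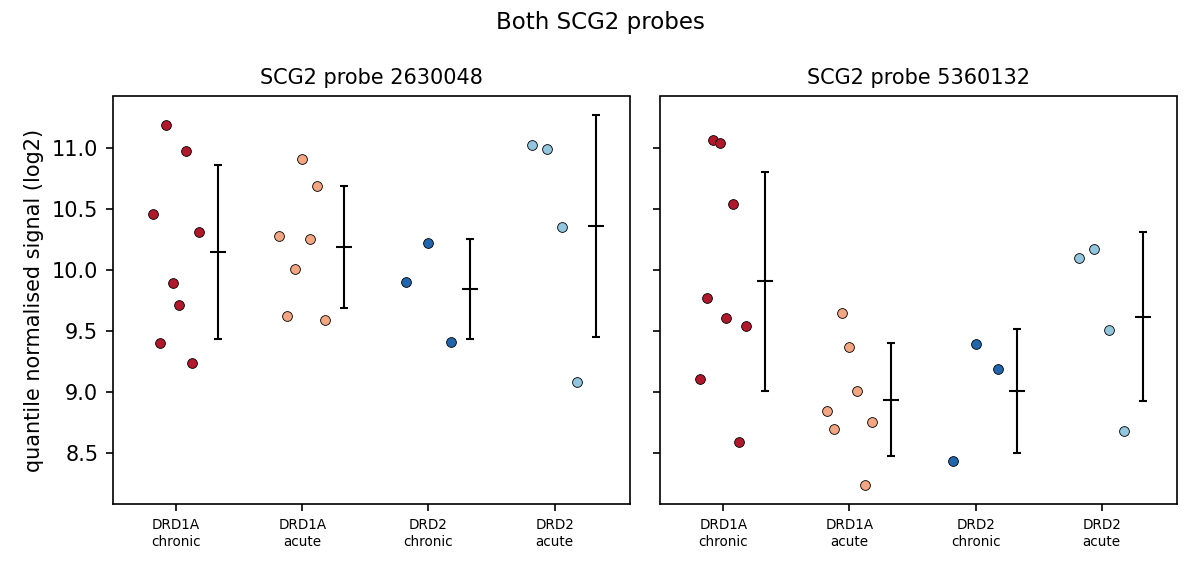
Log2 signal (y axis) of both SCG2 probes in the 4 groups (x axis); points are samples, and the bar beside them is the mean with the SD. By probe 5360132 DRD1A chronic samples ranged from 8.59 to 11.06 and DRD1A acute samples from 8.23 to 9.65. By probe 2630048 they ranged from 9.24 to 11.19 and from 9.58 to 10.90. The ranges of the 2 groups overlapped by either probe.

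No member passed the test between chronic and acute LDOPA. In DRD1A mice 0 of 10 member probes were called, against 0.0341% of all probes, and in DRD2 mice and over both lines 0 of 10, against 0.0031% in each. At an unadjusted p under 0.05 limma gave 1 of 10 member probes in DRD1A mice (SCG2, 7.8% of all probes), 0 in DRD2 mice (6.28%) and 1 over both lines (CARTPT, 7.61%), and Tukey's HSD called 0 in either line. The 7 members' brightest probes had a median chronic minus acute difference of -0.04 in DRD1A mice (range -0.50 to 0.50) and 0.34 in DRD2 mice (range -0.88 to 0.65), against 0.0033 and -0.013 over all probes. The lowest adjusted p among them was 0.77 in DRD1A mice and 0.81 in DRD2 mice. For CCK the difference was -0.01 in DRD1A mice (95% interval -0.40 to 0.39) and 0.38 in DRD2 mice (-0.20 to 0.96). The CCK value in DRD2 mice was 0.80 without chronic array 4A and 0.092 without chronic array 1A (adjusted p = 0.53 and 1.0). For TAC1 it was -0.50 (-1.21 to 0.22) and -0.48 (-1.53 to 0.57). For CCK in DRD1A mice the upper bound corresponds to a 1.31-fold change. With 3 DRD2 chronic against 4 DRD2 acute samples an exact two-sided permutation test cannot go below 0.057, so no member could pass it there.

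The opioid precursor PDYN averaged 12.64 ± 0.15 in DRD1A chronic (SD, n = 8) and 11.23 ± 0.48 in DRD1A acute samples (n = 7), a difference of 1.41 (adjusted p = 0.039). In DRD2 mice it averaged 10.89 ± 0.86 in chronic (n = 3) and 8.44 ± 0.57 in acute samples (n = 4), a difference of 2.45 (adjusted p = 0.031). Both calls were near the threshold. With BeadChip as a block the adjusted p in DRD2 mice was 0.45 at a difference of 2.07, and without BeadChip 1 it was 0.15 in DRD1A and 0.21 in DRD2 mice, at differences of 1.64 and 2.22. With each of the 23 arrays left out in turn, the DRD1A call was lost in 13 cases (without 1C, 1F, 2A, 2C, 2D, 2E, 3B, 3D, 3E, 4B, 4C, 4D or 4F). The differences in those cases were 1.32 to 1.44, and 1.32 to 1.54 over all 23. The DRD2 call was lost in 13 (without 1A, 1F, 2C, 2E, 3B, 3C, 3D, 3E, 3F, 4B, 4D, 4E or 4F). The differences there were 2.22 to 2.47, and 2.22 to 2.94 over all 23. The DRD1A call was also lost with a normexp background correction (adjusted p = 0.078) and with no filter on low signals (0.053). Over both lines PDYN differed by 1.93 (adjusted p = 0.00055 from limma), and this call was lost in 0 of the 23 cases. It also passed with BeadChip as a block (adjusted p = 0.00070) and without BeadChip 1 (0.010).

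Of 17 other neuropeptide precursors that passed the filter, PDYN was higher and PENK1 lower in DRD1A than in DRD2 mice after acute LDOPA, and the other 15, among them PNOC and VIP, precursors of nociceptin and of a peptide of cortical interneurons, were not called. After chronic LDOPA 0 of the 17 were called between the lines, PDYN and PENK1 included. PDYN was also the only one called for treatment.

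**Figure D4:**
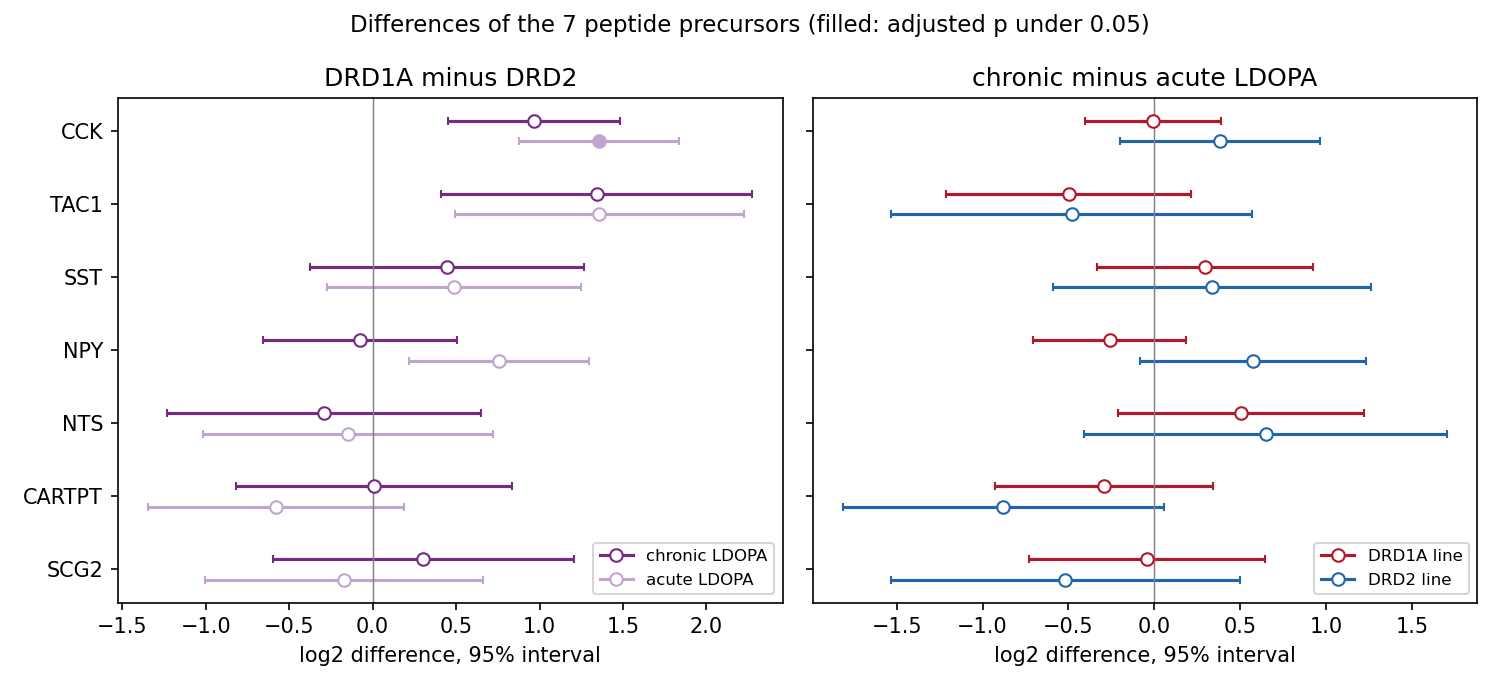
Log2 difference (x axis) of the brightest probe of each gene (y axis), DRD1A minus DRD2 after chronic or acute LDOPA (left) and chronic minus acute LDOPA in either line (right); bars are 95% intervals before adjustment and filled points have an adjusted p under 0.05. Only CCK after acute LDOPA, at 1.36, is filled, and every treatment interval includes 0.

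No receptor of the member peptides and no gene of the machinery that makes peptides was called. Of 17 receptor genes, 12 passed the filter, 5 were detected on most arrays and SSTR1 and SSTR3 on 0. With limma 0 receptors were called in any comparison. Between the lines, 2 had an unadjusted p under 0.05 after chronic LDOPA (6.14% of all probes) and 2 after acute LDOPA (9.11%). The receptors' median DRD1A minus DRD2 difference was 0.04 after chronic and 0.13 after acute LDOPA. CCKBR, the main brain receptor of CCK, differed by 1.03 after chronic and 0.50 after acute LDOPA (adjusted p = 0.72 and 0.76), and SSTR2, a somatostatin receptor, by 0.63 and 0.49 (adjusted p = 0.70 and 0.56). Of 17 genes of peptide processing and dense core granules, 16 were detected on most arrays and 0 were called. Between the lines, 0 had an unadjusted p under 0.05 after chronic LDOPA (6.14% of all probes) and 4 after acute LDOPA (9.11%). Their median difference was -0.03 after chronic and -0.04 after acute LDOPA. VGF, a granin-like peptide precursor induced by activity, differed by 0.19 and -1.30 (adjusted p = 1.0 and 0.49), and PCSK1N, an inhibitor of the convertase PCSK1, by -0.03 and -0.72 (adjusted p = 1.0 and 0.18). Across both lists 0 genes were called in the 7 comparisons.

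**Figure D5:**
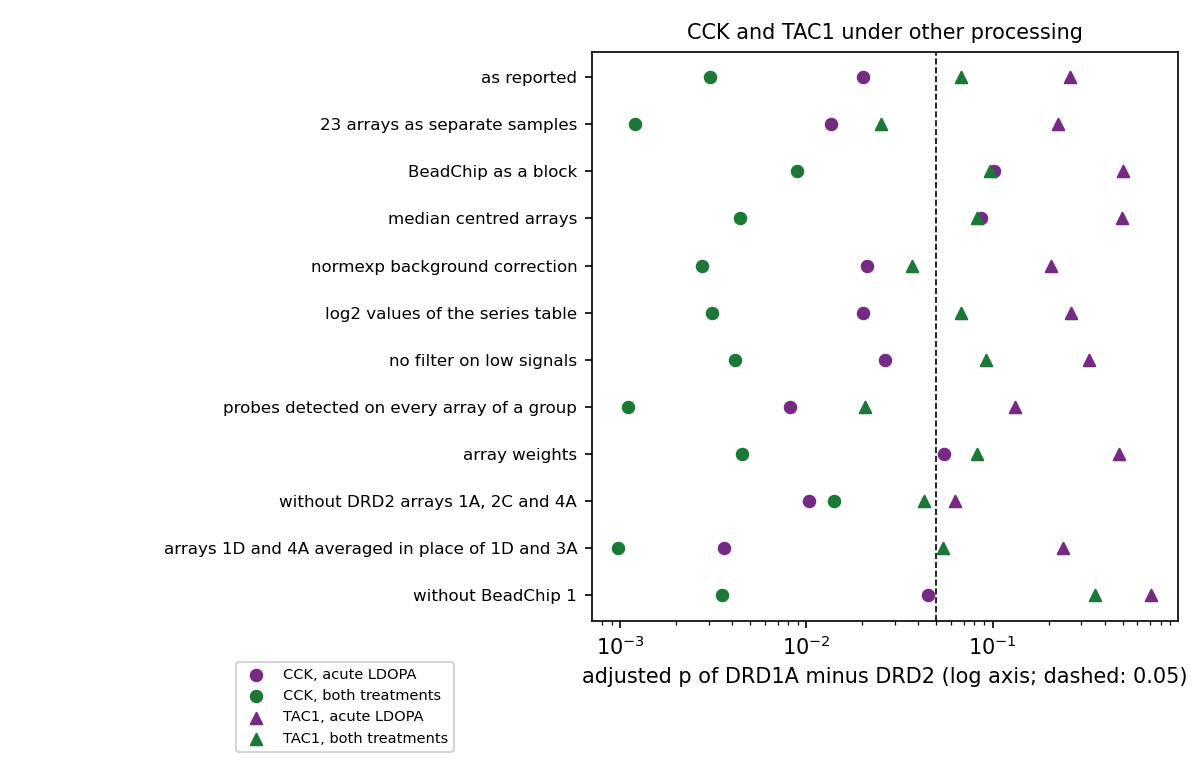
Adjusted p of DRD1A minus DRD2 (x axis, log scale, dashed line at 0.05) for CCK (circles) and TAC1 (triangles) after acute LDOPA and over both treatments, under each way of processing named on the y axis. CCK over both treatments lay below 0.05 throughout, CCK after acute LDOPA lay above it with BeadChip as a block (0.10), with median centered arrays and with array weights, and TAC1 over both treatments lay on either side of it.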

How the data were processed

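RNA on ribosomes pulled down from single striata was amplified and read on mouse whole-genome BeadChips (Illumina Mouse WG-6 v2). The authors exported one intensity per probe and array, the mean over its beads, from GenomeStudio with neither normalization nor background subtraction, together with deposited standard errors and numbers of beads. The deposited detection p-values compare each probe with the negative controls of its array. The authors' log2 values in the series table were quantile normalized and served as an alternative. A set of 4 columns from 1 array outside the listed samples was not used.

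Here the intensities of the 23 arrays were quantile normalized and, with a floor of 1, turned into log2 values. Probes above the 20th percentile on every array of at least 1 group were kept, which left 32255 of 45281 (71.2%). A mean per group was fitted with limma 3.58.1 in R 4.3.3 (18 residual and 1.41 prior degrees of freedom), and p-values were adjusted by Benjamini-Hochberg over all kept probes, with calls at an adjusted p under 0.05. The comparisons share their 4 groups. Exact permutation tests used scipy 1.17.1. The fit was tested on simulated data. The labels do not say more of the mice, so p-values measure the spread between these samples.

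A gene was represented by its probe of highest mean signal. Values by sample are given for every member detected on most arrays, the 3 genes most like each member come from annotated genes detected on all arrays, and from each list the called genes are named. SLC17A7, NOS1, PNOC, VIP, CCKBR, SSTR2, VGF and PCSK1N were named after their values were seen. Members and lists were chosen with earlier results of these data known. The written design named the near-identical arrays 1D and 4A, and the DRD2 arrays with high DRD1A as 1A, 2C and 3A, by another numbering of the BeadChips. They are 1D and 3A, and 1A, 2C and 4A, here, and averaging 1D with 4A was run as an alternative chosen after seeing the data, as were the methods' test on 23 arrays and the CART probe. The number of arrays limits the precision.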

Additional observations from a re-analysis of the deposited data

Results flagged for a closer look

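Among 33 groups of 8, 7 or 4 samples checked over the 10 member probes and the CART probe, 4 held a sample far from the others, where chance alone flags about 1 in 20 groups. DRD2 acute array 2C stood at 9.71 for TAC1, and the other 3 arrays of that group lay between 7.62 and 7.96. DRD1A chronic array 2E stood at 8.61 for NPY, with the others between 7.36 and 7.84. DRD1A acute array 1E stood at 9.52 for NTS by probe 7320255, with the others between 8.08 and 8.62. DRD1A chronic array 4D stood at 7.53 for the CART probe, with the others between 8.96 and 9.81, and it was also the lowest of its group for CARTPT probe 4050706 (7.46).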

How the results depend on the processing

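The alternatives were 23 separate arrays, BeadChip as a block, the series table's log2 values, normexp background correction, median centered arrays, no filter on low signals, detected probes only, array weights, the methods' Tukey test, other probes of a gene, and leaving out BeadChip 1, single arrays or DRD2 arrays 1A, 2C and 4A. Of 1126 values over 31 results of single members, 1054 kept their direction and side of the threshold. Of the others, 58 reversed, 9 came to pass and 5 no longer passed, and the cause was not tested. Many of the 1126 values leave out an array outside the groups compared, which cannot change the difference. Most of the 31 results were called in no setting. The share that stayed the same is therefore no measure of robustness.

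The count of member probes called between the lines after chronic LDOPA, 0 as reported, was 1 (CCK) by Tukey's HSD with 22 samples and with 23 arrays. After acute LDOPA, 1 as reported, it was 0 with BeadChip as a block, with median centered arrays and with array weights (CCK 1.30, 1.30 and 1.35, adjusted p = 0.10, 0.086 and 0.055). Over both treatments, 1 as reported, it was 2 (CCK and TAC1) with 23 arrays, normexp, detected probes only, and without arrays 1A, 2C and 4A. Leaving out 1 sample gave 0 to 2 after acute LDOPA (0 without DRD2 acute 2F or 3F, 2 without 2C), 1 to 2 over both treatments (2 without 2C or DRD1A chronic 3E), and 1 to 2 among the 4 groups (2 without 2C).

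Values that reversed were as follows. Without arrays 1A, 2C and 4A the DRD1A minus DRD2 difference after chronic LDOPA was -0.70 for SST, 0.45 for NPY, -0.65 for CARTPT and -0.072 for SCG2, that after acute LDOPA was 0.22 for NTS and 0.049 for SCG2, and the chronic minus acute difference in DRD2 mice was -0.0091 for NPY and 0.077 for SCG2. With BeadChip as a block the chronic minus acute difference in DRD1A mice was 0.038 for CCK and 0.036 for SCG2, and the line difference after chronic LDOPA was 0.066 for NTS and -0.056 for CARTPT. With median centering the chronic minus acute difference in DRD1A mice was 0.35 for CCK and 0.36 for SCG2. After chronic LDOPA the line difference of NPY was 0.055 with 23 arrays in limma and in the Tukey test, 0.038 with 1D and 4A averaged and 0.11 without BeadChip 1. That of CARTPT was -0.16 with 23 arrays in both tests, -0.087 with normexp, -0.079 with weights, -0.19 with 1D and 4A averaged, -0.047 without BeadChip 1 and -0.33 by the CART probe. Other probes gave 0.12 for NTS between the lines after acute LDOPA, -0.086 for NTS and 0.97 for SCG2 between treatments in DRD1A mice, and, for the undetected TAC1 probe, -0.048 and -0.035 between the lines after chronic and acute LDOPA and 0.028 and 0.041 between treatments in DRD1A and DRD2 mice.

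Leaving out 1 sample moved the line difference after chronic LDOPA between -0.26 and 0.18 for CARTPT and between -0.19 and 0.11 for NPY. It moved the line difference after acute LDOPA between -0.35 and 0.22 for NTS and between -0.60 and 0.049 for SCG2. The chronic minus acute difference in DRD1A mice ran between -0.11 and 0.066 for CCK and between -0.19 and 0.09 for SCG2, and in DRD2 mice between -0.74 and 0.0094 for TAC1.

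Over all probes the number called changed more. It was 51 after acute LDOPA between the lines (6 with the block, 89 among detected probes), 9 after chronic LDOPA (6 without BeadChip 1, 201 without arrays 1A, 2C and 4A), 118 over both treatments (28 and 221 in those settings) and 95 among the 4 groups (29 without BeadChip 1, 364 with median centering). It was 11 between treatments in DRD1A mice (0 without BeadChip 1, 247 with median centering), 1 in DRD2 mice (0 with the block, 139 without 1A, 2C and 4A), 1 over both lines (up to 122) and 0 for the interaction (up to 111). The Tukey test gives no value over both treatments or for the interaction. No paired analysis was possible because the labels give array positions and no pairing numbers.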
